A study of Mus musculus with 6 samples.

Results

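The comparison was between dorsal skin of mice treated with imiquimod (IMQ) and skin of untreated mice (Normal), made separately in 6 cell classes: keratinocytes, fibroblasts, mural cells, endothelial cells, T cells and myeloid cells. Its members were the 4 single-cell RNA libraries labelled Normal_1, Normal_2, IMQ_1 and IMQ_2, of 6 in the series. Of 37890 deposited cell barcodes in these 4 libraries, 34780 held under 100000 UMIs (a UMI marks 1 captured RNA molecule), under 6500 genes and under 10% mitochondrial UMIs, and 29968 of those were placed in a class. All 6 libraries of the series held 50850 such barcodes of 55201. The mice were female C57BL/6J, 8 to 10 weeks old. The IMQ mice had 62.5 mg of a 5% imiquimod cream spread on the shaved back each day for 4 days and were killed a day after the last dose, and the Normal mice are labelled as untreated, so the effects of imiquimod, of the cream base and of its handling cannot be told apart. Each library pooled several mice, which makes the library the replicate (n = 2 per group), and nothing in the labels says more about how the pools were formed. The paper describes smaller pools of mice for its untreated (sham) group than for its treated groups. Pool size thus moved with treatment, and its part was not tested. The libraries of the remaining group, IMQ mice also given the SHP2 inhibitor SHP099 at 10 mg/kg, were not part of the contrast. They entered the estimate of the spread between libraries, the reference used to assign cells, the filter on low counts and the scaling.

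Imiquimod is an agonist of Toll-like receptor 7, and repeated application to mouse skin is a common model of psoriasis-like inflammation. In that model dendritic cells release IL-23, T cells that carry the type 17 programme release IL-17A, IL-17F and IL-22, and keratinocytes answer with antimicrobial proteins, stress keratins and chemokines that draw neutrophils. Fibroblasts, pericytes and endothelial cells also carry receptors for IL-17 and IL-1, and acute-phase proteins such as SAA3 and lipocalin 2 are known targets of those cytokines. Keratinocytes otherwise follow a fixed path from a basal, dividing state to the cornified layer, whose proteins include loricrin.

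Promoter sequences are shown first for the neutrophil chemokine genes Cxcl1, Cxcl2 and Cxcl3, all higher in IMQ keratinocytes, and for H2-T22, an MHC class I gene that was lower there. They were picked because they changed in keratinocytes and hold the motif searched for their list, so the marked sites follow from the choice. Each sequence is the 250 bases before the RefSeq transcription start in build GRCm38.p6, read 5′ to 3′ on the gene's strand: chr5:90890995-90891244 (plus strand) for Cxcl1, chr5:90903649-90903898 (plus strand) for Cxcl2, chr5:90785851-90786100 (plus strand) for Cxcl3 and chr17:36042743-36042992 (minus strand) for H2-T22. In the 3 chemokine genes the capitals mark a match to an NF-kB site, spelled GGGA, any base and TTTCC, and in H2-T22 they mark an interferon response element, spelled GAAA, any 2 bases and GAAA, found on the opposite strand. Both motifs were searched on both strands, and the capital stretches overlapped no other motif searched.
Cxcl1: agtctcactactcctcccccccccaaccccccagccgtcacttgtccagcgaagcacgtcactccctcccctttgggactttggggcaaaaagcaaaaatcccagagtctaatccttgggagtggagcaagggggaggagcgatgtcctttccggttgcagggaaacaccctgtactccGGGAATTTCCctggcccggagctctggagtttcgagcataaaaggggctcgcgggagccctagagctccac
Cxcl2: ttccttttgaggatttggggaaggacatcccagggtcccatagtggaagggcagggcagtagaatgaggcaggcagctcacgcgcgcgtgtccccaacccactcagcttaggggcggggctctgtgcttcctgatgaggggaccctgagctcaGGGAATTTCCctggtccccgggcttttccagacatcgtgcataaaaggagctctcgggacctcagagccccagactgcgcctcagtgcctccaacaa
Cxcl3: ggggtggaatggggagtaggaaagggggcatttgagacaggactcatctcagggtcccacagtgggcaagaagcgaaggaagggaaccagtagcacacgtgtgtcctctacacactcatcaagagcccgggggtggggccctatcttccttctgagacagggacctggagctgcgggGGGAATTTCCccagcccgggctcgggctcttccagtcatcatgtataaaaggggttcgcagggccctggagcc
H2-T22: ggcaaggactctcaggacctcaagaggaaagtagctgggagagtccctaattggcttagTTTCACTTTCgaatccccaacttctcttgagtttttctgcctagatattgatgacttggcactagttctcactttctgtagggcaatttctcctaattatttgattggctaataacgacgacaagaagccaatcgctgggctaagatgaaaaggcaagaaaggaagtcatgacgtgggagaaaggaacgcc

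Over the same window in 27025 genes, the NF-kB spelling was present in 112 promoters (0.414%) and the interferon response element in 936 (3.46%). The NF-kB spelling was in 3 of 22 chemokine promoters (13.6%), which are those printed, and in 3 of 15 promoters of the IL-17 response list (20%). These lists share members, so their counts are not independent. The interferon response element was in 9 of 20 promoters of interferon-stimulated genes (45%) and in 3 of 16 of the MHC class I list (18.8%). These are matches of letters in a short window and show no binding.

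Cells were assigned by the summed UMIs of a few defining genes, called a gate: Krt5, Krt14, Krt1 and Krt10 for keratinocytes, Col1a1, Col1a2 and Col3a1 for fibroblasts, Acta2 and Tagln for mural cells (smooth muscle and pericytes), Pecam1 and Cdh5 for endothelial cells, Cd3d, Cd3e and Cd3g for T cells, and Lyz2 and Cd74 for myeloid cells. This gave 9715 keratinocytes, 12997 fibroblasts, 1953 mural cells, 1108 endothelial cells, 1494 T cells and 2701 myeloid cells. Between 0.599% and 10.7% of a class's cells in a library lay close to the gate threshold. The UMIs of another class's gate were highest in mural cells, with medians of 6.05 and 11.5 fibroblast gate UMIs per 10000 in the Normal libraries and 14.9 and 18.55 in the IMQ libraries. Barcodes that passed no gate were 4.01% of the kept barcodes of Normal_1, 14.6% of Normal_2, 15.8% of IMQ_1 and 13.4% of IMQ_2. Other markers of each type, not used in the gates, were present in all of the classes. They summed to 27790 to 37961 counts per 1000000 UMIs of the class (CPM) in keratinocytes, 23878 to 27374 in fibroblasts, 16237 to 22908 in mural cells, 6282 to 8159 in endothelial cells, 5308 to 9809 in T cells and 5097 to 8451 in myeloid cells. Total UMIs per library ran from 106524442 to 125455016, and 14 to 43 barcodes were shared by any pair of these libraries.

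The makeup of the Normal libraries was unequal. Keratinocytes were 70.2% of kept barcodes in Normal_1, 18.4% in Normal_2, 17.5% in IMQ_1 and 8.1% in IMQ_2, a mean difference of -31.5 percentage points (exact two-sided permutation p = 0.333, the smallest that 2 against 2 libraries allow). The fibroblast share was 12.5% and 40.9% in the Normal libraries and 37.8% and 54.9% in the IMQ libraries (p = 0.667, exact permutation test), so that Normal_2 resembled the IMQ libraries more than it resembled Normal_1. Mural cells were 1.12% and 2.44% of the Normal libraries and 7.91% and 10.2% of the IMQ libraries, without overlap (difference 7.27 points, exact permutation p = 0.333). Endothelial, T and myeloid shares overlapped between the groups (exact permutation p = 1 for each). In sums of UMIs over a class, fewer cells that hold an RNA and less of it per cell cannot be told apart.

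Keratinocytes of the IMQ libraries yielded more UMIs per cell, and the part of capture and depth in this was not tested. The median was 9911 UMIs in Normal_1 and 15241 in Normal_2, against 34812 in IMQ_1 and 31944 in IMQ_2. The ratio of group means was 2.65 (exact permutation p = 0.333). In the other classes this ratio lay between 1.04 in T cells and 1.54 in mural cells. The suprabasal keratins Krt1 and Krt10 gave 40.7% and 53.6% of the keratin gate's UMIs in the Normal libraries and 23.8% and 20.9% in the IMQ libraries, a lower suprabasal share in both IMQ libraries. This shift moved with every keratinocyte result below, and its part in them was not tested.

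**Figure D1:**
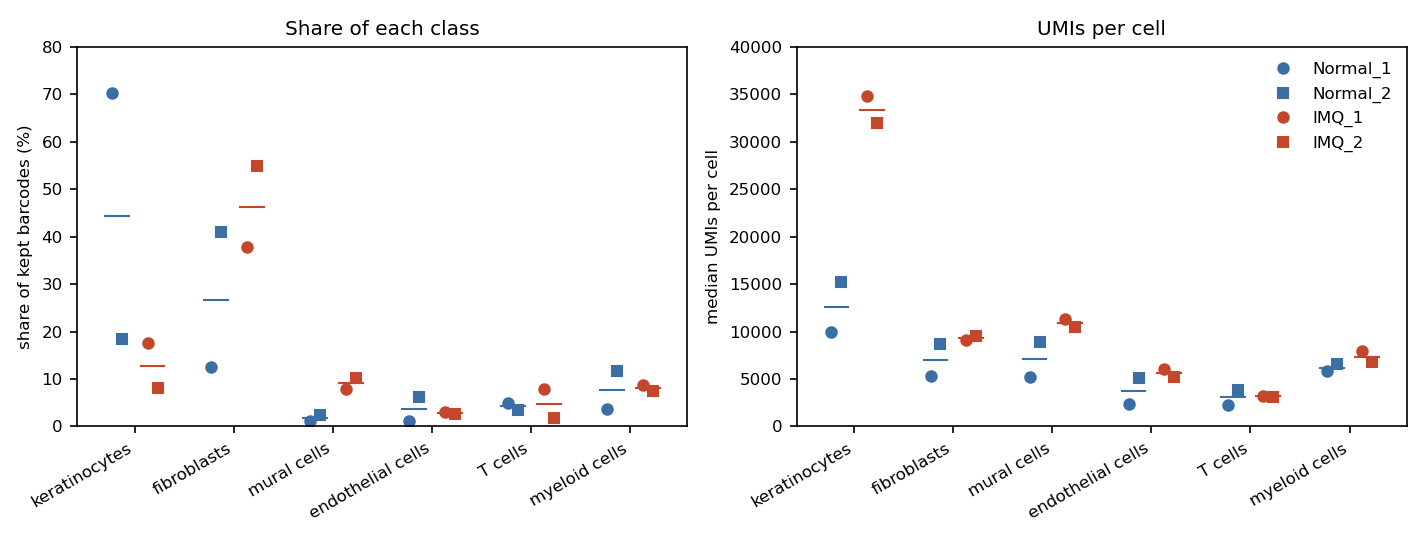
Share of kept barcodes in percent (first panel) and median UMIs per cell (second panel) for each of the 6 cell classes, with a dot for each of the 2 Normal and 2 IMQ libraries and a short line at each group mean. Keratinocyte shares ran from 8.1% to 70.2%, and median UMIs per keratinocyte were 9911 and 15241 in the Normal libraries against 34812 and 31944 in the IMQ libraries.

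Within each class, UMIs were summed per library and tested with edgeR's quasi-likelihood test, with p adjusted by the Benjamini-Hochberg method over all genes tested in the class, and a gene was called where the adjusted p was below 0.05. Gene levels below are CPM scaled between the libraries of a class by the TMM factors of this fit, and levels given as a percentage of another class are taken from CPM without these factors. In keratinocytes 948 genes rose (6.64%) and 1284 fell (8.99%) of 14285 tested, 15.6% in all. In fibroblasts 33 rose (0.226%) and 31 fell (0.212%) of 14607, 0.438% in all. In mural cells 14 rose (0.121%) and 5 fell (0.0431%) of 11594, 0.164% in all. In endothelial cells 8 rose (0.0784%) and 3 fell (0.0294%) of 10205, 0.108% in all. In T cells 5 rose (0.0565%) and 3 fell (0.0339%) of 8856, 0.0903% in all. No gene was called of 11351 in myeloid cells (0%), where 1113 (9.81%) had an unadjusted p below 0.05 in edgeR and DESeq2 called 242. On simulated counts with the same libraries, a 4-fold change was recovered for 64% of changed genes in keratinocytes, 52% in fibroblasts, 63% in mural cells, 67% in endothelial cells, 34% in T cells and 0% in myeloid cells, and a 2-fold change for at most 5% in any class. A gene that was not called is therefore given by its values, and absence of a call is not a finding of no change. The median log2 fold change over all tested genes lay between -0.06 and -0.01 in the 6 classes.

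The genes were read through 32 pathway and cell type lists, described by how many members were called and by the median log2 fold change. The IL-17 response list and the complement and acute-phase list had members called higher in keratinocytes, fibroblasts, mural cells, endothelial cells and T cells, with Saa3, a serum amyloid A protein, among the called genes of all of these classes. Median log2 fold changes of the IL-17 response list were 6.25 in keratinocytes, 2.42 in fibroblasts, 0.82 in mural cells, 0.31 in endothelial cells, 3.17 in T cells and 2.73 in myeloid cells. The classes came from the same libraries and are not independent of each other. Outside fibroblasts, the IMQ level of Saa3 in the classes that called it was a small fraction of the fibroblast level. The S100a8 and S100a9 calls described below for fibroblasts, endothelial cells and T cells likewise stood far below the myeloid level. The part of RNA from other cells in these calls was not tested.

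**Figure D2:**
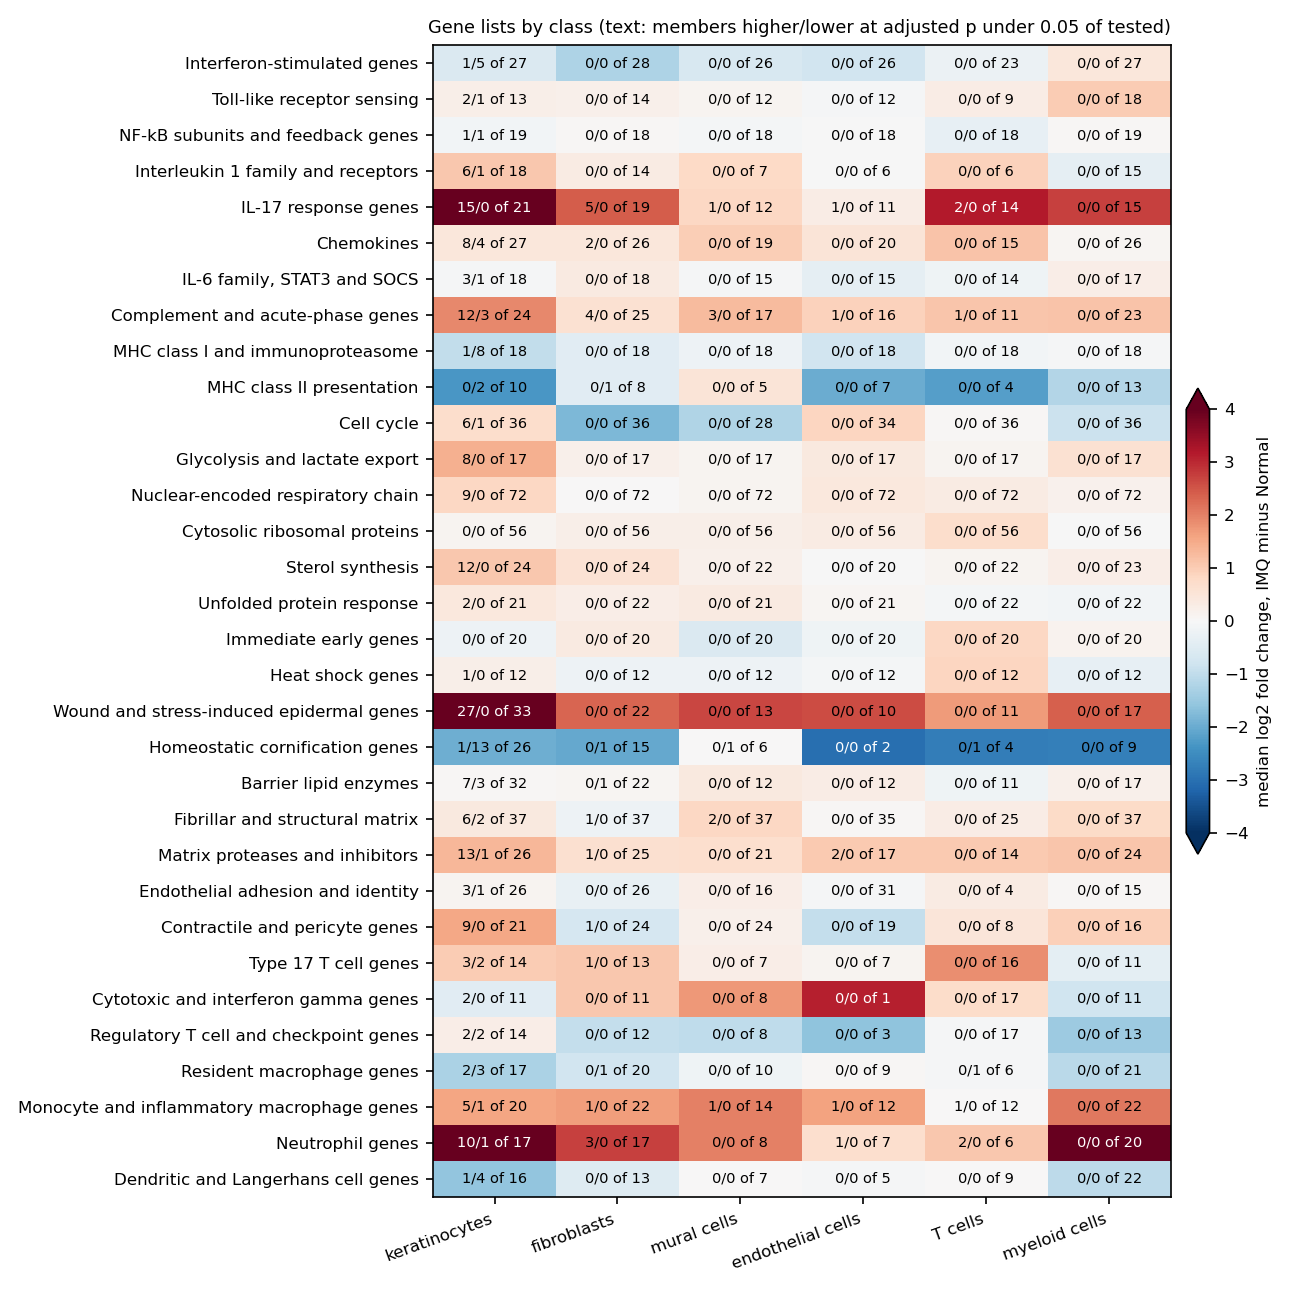
Median log2 fold change, IMQ against Normal, of the tested members of 32 gene lists (rows) in 6 cell classes (columns), coloured from -4 to 4, with the number of members called higher and lower of those tested printed in each cell. The IL-17 response list had 15 members called higher of 21 in keratinocytes and 5 of 19 in fibroblasts, and myeloid cells had no call in any list.

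In keratinocytes, wound and stress-induced genes of the epidermis gave the broadest change, with 27 of 33 tested members higher and 0 lower, a median log2 fold change of 4.81, and 6.64% of all tested genes called higher. The stress keratins, which appear in wounded and psoriatic epidermis, were among them. Krt6b stood at 1.76 and 2.74 CPM in the Normal libraries and at 4231 and 3048 CPM in the IMQ libraries (log2 fold change 10.67 ± 0.60 SE, adjusted p = 8.05e-05). Both IMQ libraries lay far above both Normal libraries. Sprr2b, a cornified envelope precursor, had 1 UMI in the Normal keratinocytes of both libraries and 155 and 123 CPM in the IMQ libraries, a ratio of 16500 with an exact 95% counting interval of 2960 to 652000 (adjusted p = 4.48e-05). Serpinb3a, a protease inhibitor with near-identical copies that may share its reads, went from 1.92 and 0.2 CPM to 355 and 246 CPM (8.05 ± 0.87, adjusted p = 0.000822). Krt6a and Krt16, chosen after their values were seen, were at 53.3 and 33.0 CPM against 4791 and 4507 CPM and at 573 and 157 CPM against 8536 and 6546 CPM (adjusted p = 0.000219 and 0.00412).

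The IL-17 response list had 15 of 21 tested members higher in keratinocytes and 0 lower, against 6.64% of all tested genes called higher. Both IMQ libraries lay above both Normal libraries for 18 members, as they did for 31% of all tested genes. S100a8 and S100a9 encode the subunits of calprotectin, an antimicrobial protein of neutrophils and of inflamed epidermis. S100a8 went from 1.71 and 0.6 CPM to 16790 and 12870 CPM (log2 fold change 13.60 ± 0.91 SE, adjusted p = 0.000133). S100a9 went from 1.93 and 0.257 CPM to 18220 and 12270 CPM (13.68 ± 1.17, adjusted p = 0.00036). Il19, an IL-10 family cytokine of activated keratinocytes, was at 0.186 and 0.0571 CPM against 57.6 and 22.6 CPM (8.14 ± 0.69, adjusted p = 0.000353). Defb4, a beta-defensin chosen after its values were seen, had no UMI in either Normal library and 13.7 and 7.75 CPM in the IMQ libraries, at least 440-fold higher. The S100a8 and S100a9 levels of IMQ keratinocytes were 73.2% and 86.4% of those in IMQ myeloid cells. The neutrophil granule genes Retnlg and Ngp, chosen after their values were seen, were at 0.443% and 0.147% of the myeloid level. The part of neutrophil RNA in the keratinocyte values was not tested. The neutrophil list, which includes S100a8 and S100a9, had 10 of 17 members higher and 1 lower in keratinocytes. Its summed level was 673 and 368 CPM in the Normal libraries and 33092 and 25705 CPM in the IMQ libraries. In the IMQ libraries most of that sum was S100a8 and S100a9.

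Chemokine genes moved in both directions, with 8 of 27 tested members higher and 4 lower (median 0.45). Of all tested genes 6.64% were called higher and 8.99% lower. Those that rose in IMQ keratinocytes included the neutrophil attractants whose promoters are printed above. Cxcl1 went from 9.89 and 5.2 CPM to 118 and 63.5 CPM (log2 fold change 3.58 ± 0.42 SE, adjusted p = 0.00118), and Cxcl2 from 15.9 and 3.94 CPM to 279 and 131 CPM (4.36 ± 0.67, adjusted p = 0.00394). Cxcl3, below the level set for naming, was at 0.421 and 0 CPM against 33.4 and 6.42 CPM (adjusted p = 0.00495), a gap of several fold between the IMQ libraries. Ccl20, the ligand of the type 17 T cell receptor CCR6, rose from 7.68 and 19.2 CPM to 144 and 191 CPM (3.64, adjusted p = 0.00894). Chemokines of resting epidermis fell in the same cells. Ccl27a, which draws skin-homing memory T cells, went from 839 and 342 CPM to 31.1 and 37.8 CPM (-4.10, adjusted p = 0.00227), and Cxcl14 from 693 and 225 CPM to 65.6 and 137 CPM (-2.18, adjusted p = 0.0332). Ackr3, a scavenging receptor for CXCL12, also fell (-1.16, adjusted p = 0.0137).

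IL-1 family genes had 6 of 18 tested members higher and 1 lower in keratinocytes, against 15.6% of all tested genes called in either direction. Il1f9, which encodes IL-36 gamma, rose from 9.13 and 5.66 CPM to 131 and 104 CPM (log2 fold change 3.99 ± 0.42 SE, adjusted p = 0.000727). Il1rn, the IL-1 receptor antagonist, rose by less, from 57.5 and 64.0 CPM to 172 and 126 CPM (1.29, adjusted p = 0.028). The decoy receptor gene Il1r2 fell from 262 and 94.95 CPM to 5.79 and 4.52 CPM (-5.11 ± 0.50, adjusted p = 0.000597). In the IL-6, STAT3 and SOCS list 3 of 18 rose and 1 fell, against the same 15.6%. The cytokine gene Clcf1 went from 7.24 and 4.97 CPM to 75.5 and 31.6 CPM and the feedback gene Socs1 from 7.58 and 9.43 CPM to 38.8 and 28.0 CPM (adjusted p = 0.00219 and 0.00351), whereas Il6ra, the IL-6 receptor, fell from 63.0 and 61.5 CPM to 9.03 and 7.41 CPM (-2.92, adjusted p = 0.000372). The Toll-like receptor list had 2 higher and 1 lower of 13 and the NF-kB list 1 and 1 of 19, against 15.6% of all tested genes called. The Toll-like receptor adaptor Myd88 was at 23.9 and 27.9 CPM against 48.7 and 41.3 CPM (0.80, adjusted p = 0.047).

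Cornification genes of the resting epidermis went the other way. Of 35 listed, 26 were tested, 13 fell and 1 rose, with a median log2 fold change of -1.94 and 8.99% of all tested genes called lower. Krt77, a suprabasal keratin, fell from 3976 and 3813 CPM to 1.01 and 3.04 CPM (-10.94 ± 0.92 SE, adjusted p = 0.000346). Lor, which encodes loricrin, fell from 151 and 88.5 CPM to 2.21 and 1.18 CPM (-6.12 ± 0.54, adjusted p = 0.000382), and Krt78 from 107 and 70.7 CPM to 2.58 and 2.01 CPM (adjusted p = 0.000675). The groups did not overlap for any of these genes. Enzymes of the barrier lipids were split, with 7 of 32 higher and 3 lower (median 0.06), against 6.64% and 8.99% of all tested genes. Fabp5, a fatty acid binding protein of psoriatic epidermis, rose from 835 and 832 CPM to 24860 and 20420 CPM (4.76 ± 0.55, adjusted p = 0.00108), and Degs1, a ceramide desaturase, from 94.4 and 79.4 CPM to 298 and 267 CPM (1.70, adjusted p = 0.00556). Alox12e, a lipoxygenase, fell from 89.3 and 93.8 CPM to 2.91 and 5.96 CPM (-4.38, adjusted p = 0.00104).

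The lists of sterol synthesis, glycolysis and the respiratory chain had members that rose in IMQ keratinocytes, against 6.64% of all tested genes called higher. In the sterol synthesis list 12 of 24 rose and 0 fell (median 1.07), in glycolysis and lactate export 8 of 17 rose and 0 fell (1.42), and in the nuclear-encoded respiratory chain 9 of 72 rose and 0 fell (0.81), with 71 of the 72 log2 fold changes fitted above 0. Idi1, an isomerase of the mevalonate pathway, was at 88.3 and 86.5 CPM against 332 and 288 CPM (log2 fold change 1.83 ± 0.33 SE, adjusted p = 0.00802). Mvd and Pmvk, neighbouring enzymes of that pathway, went from 19.9 and 19.1 CPM to 64.9 and 60.7 CPM and from 59.5 and 50.3 CPM to 166 and 163 CPM (adjusted p = 0.00415 and 0.0053). Hk2, a hexokinase, rose from 32.0 and 40.0 CPM to 156 and 121 CPM (1.95, adjusted p = 0.00274), as did the lactate exporter Slc16a3 (2.28, adjusted p = 0.0187). The respiratory chain genes Ndufa4 and Cyc1 rose from 491 and 280.4 CPM to 1443 and 1203 CPM (1.78, adjusted p = 0.0227) and from 112 and 88.3 CPM to 292 and 289 CPM (1.54, adjusted p = 0.0163). Cytosolic ribosomal protein genes had 0 of 56 called (median 0.10).

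Cell cycle genes had 6 of 36 higher and 1 lower in keratinocytes (median 0.72). Called in either direction were 19.4% of this list and 15.6% of all tested genes. Rrm2, a ribonucleotide reductase subunit, rose from 9.99 and 21.9 CPM to 64.7 and 52.2 CPM (log2 fold change 1.88, adjusted p = 0.0165), and Birc5, which encodes survivin, from 29.9 and 34.4 CPM to 101 and 105 CPM (1.68, adjusted p = 0.0171). The proliferation marker Mki67, chosen after its values were seen, overlapped between the groups at 31.6 and 71.9 CPM against 50.0 and 61.5 CPM. Ccnd2, a D-type cyclin, fell from 226 and 194 CPM to 29.1 and 38.4 CPM (-2.63, adjusted p = 0.000726).

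In the MHC class I list 8 of 18 tested members fell in IMQ keratinocytes and 1 rose (median -0.98), against 8.99% of all tested genes called lower. In the interferon list 5 of 27 fell and 1 rose (-0.57). H2-T22, whose promoter is printed above, went from 103 and 48.7 CPM to 23.9 and 24.3 CPM (log2 fold change -1.66 ± 0.42 SE, adjusted p = 0.0318). H2-Q6 fell from 96.2 and 47.6 CPM to 5.98 and 6.27 CPM (adjusted p = 0.000909) and H2-Q7 from 227 and 119 CPM to 26.8 and 39.2 CPM (adjusted p = 0.0119). These Q genes are near-identical copies, so their split of reads is uncertain. Nlrc5, the transactivator of MHC class I genes, was at 34.8 and 30.4 CPM against 5.82 and 6.42 CPM (-2.42, adjusted p = 0.00063) and was named after its values were seen. The classical genes H2-K1 and H2-D1 and the light chain B2m, likewise chosen afterwards, had log2 values of -1.004, -0.79 and -0.96 and were not called (adjusted p = 0.0971, 0.273 and 0.0996). Psmb10, an immunoproteasome subunit, rose from 24.0 and 16.5 CPM to 47.4 and 46.8 CPM (1.21, adjusted p = 0.0226). Among interferon-stimulated genes, Ifi27l2a fell from 151 and 34.2 CPM to 8.77 and 18.9 CPM (-2.75, adjusted p = 0.0241) and Ly6e rose from 83.8 and 74.9 CPM to 202 and 198 CPM (1.33, adjusted p = 0.0124). MHC class II genes had 2 of 10 lower in keratinocytes, with H2-Ab1 at 104 and 18.2 CPM against 5.54 and 11.8 CPM (adjusted p = 0.0428). That IMQ level was 0.236% of the myeloid one, and the part of myeloid RNA in it was not tested.

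Complement and acute-phase genes had 12 of 24 higher and 3 lower in keratinocytes (median 1.93), against 6.64% and 8.99% of all tested genes. The complement component C3 rose from 6.94 and 7.17 CPM to 37.7 and 51.5 CPM (log2 fold change 2.66, adjusted p = 0.00566). The C1 inhibitor Serping1 rose from 10.2 and 11.7 CPM to 32.2 and 38.5 CPM (1.69, adjusted p = 0.00304). Cd55, a surface inhibitor of complement, fell from 107 and 45.4 CPM to 4.15 and 5.85 CPM (-3.93, adjusted p = 0.000954). Saa3 went from 0.272 and 0.0857 CPM to 378 and 132 CPM (10.29, adjusted p = 0.000433), which was 1.65% of the IMQ fibroblast level. Matrix proteases and their inhibitors had 13 of 26 higher and 1 lower (1.33), with the collagen-degrading cathepsin Ctsk at 4.34 and 10.7 CPM against 40.4 and 36.7 CPM and the gelatinase Mmp2 at 18.9 and 20.4 CPM against 44.8 and 43.5 CPM (adjusted p = 0.00724 and 0.0209). Those IMQ levels were 1.89% and 3.29% of the fibroblast ones, and the part of fibroblast RNA was not tested. Timp3 fell from 63.2 and 83.4 CPM to 13 and 20.1 CPM (-2.15, adjusted p = 0.00209).

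**Figure D3:**
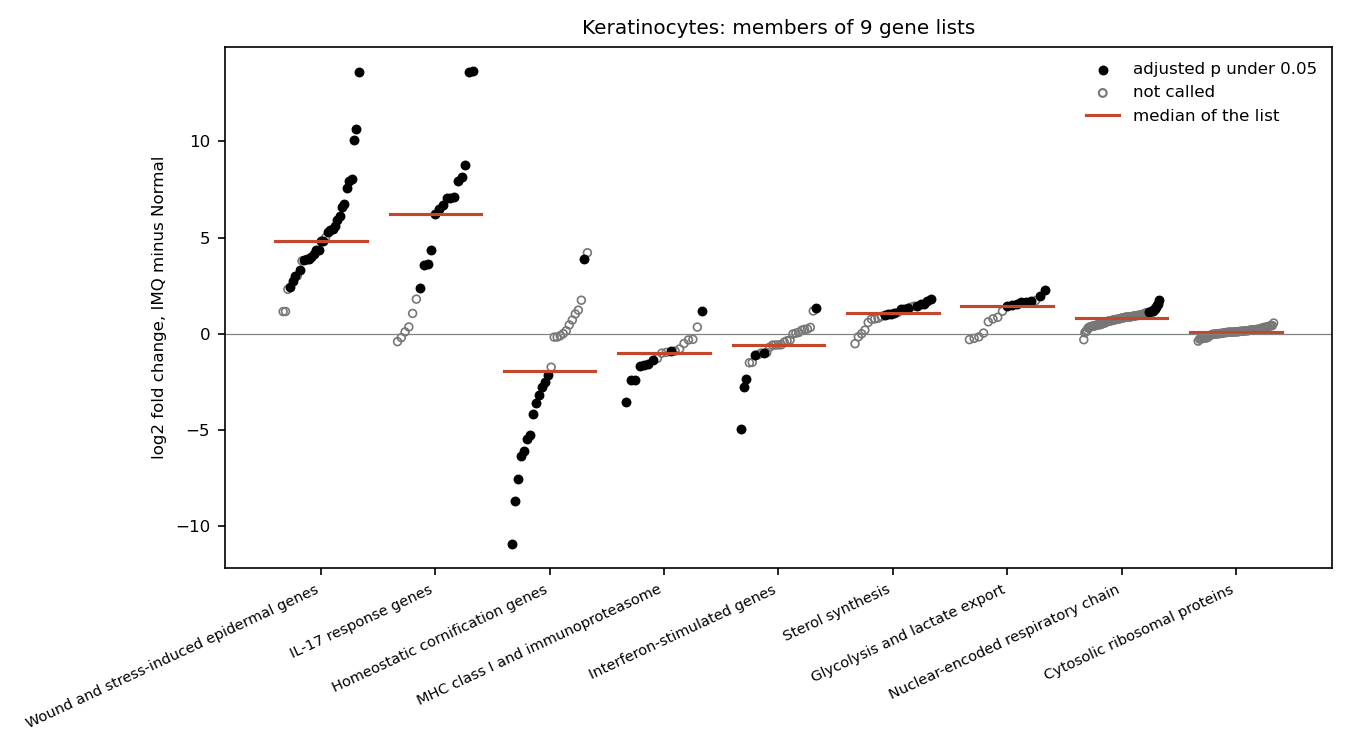
Log2 fold change, IMQ against Normal, in keratinocytes for each tested member of 9 gene lists, filled where the adjusted p was below 0.05 and open otherwise, with a red line at the list median. The medians ran from 6.25 for the IL-17 response list and 4.81 for wound and stress genes down to -1.94 for cornification genes.

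In fibroblasts the genes that rose included acute-phase genes, a neutrophil chemokine and a few matrix genes. The IL-17 response list had 5 of 19 higher and 0 lower against 0.226% of all tested genes called higher, and the complement and acute-phase list 4 of 25 and 0 (median 0.61). Saa3 was at 13.6 and 7.95 CPM in the Normal libraries and at 21610 and 8313 CPM in the IMQ libraries (log2 fold change 10.47 ± 1.11 SE, adjusted p = 0.0252). Lcn2, which encodes lipocalin 2, an iron-sequestering antimicrobial protein, went from 0.663 and 0.72 CPM to 2746 and 1004 CPM (11.37 ± 1.02, adjusted p = 0.0252). The IMQ libraries differed from each other severalfold in size but stood far above both Normal libraries. Cxcl5, a further neutrophil attractant, went from 0.166 and 0.0745 CPM to 72.0 and 65.1 CPM (9.53 ± 0.57, adjusted p = 0.00307). Saa1 and Hp, acute-phase genes, were also higher (7.71 and 7.08, adjusted p = 0.0252 and 0.0425). S100a8 and S100a9 were called (adjusted p = 0.0252 for both) at 0.973% and 1.06% of the IMQ myeloid level, and the part of myeloid RNA in them was not tested.

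Among chemokines of fibroblasts 2 of 26 rose, against 0.226% of all tested genes. Cxcl12, the ligand of CXCR4, went from 310.5 and 298 CPM to 1828 and 1554 CPM (log2 fold change 2.48 ± 0.36 SE, adjusted p = 0.0486). Cxcl1, chosen after its values were seen, was at 184 and 63.5 CPM against 319 and 463 CPM and was not called (adjusted p = 0.204). The matrix list had 1 of 37 higher and 0 lower, with a median of -0.20, and the called gene was that of the glycoprotein tenascin C. This gene, Tnc, rose from 25.5 and 20.4 CPM to 1413 and 804 CPM (5.60 ± 0.58, adjusted p = 0.0252). The stromelysin-type protease gene Mmp11 rose from 22.7 and 19.5 CPM to 142 and 87.0 CPM (2.45, adjusted p = 0.0301), and the metalloreductase gene Steap4 from 64.0 and 65.1 CPM to 509 and 425 CPM (adjusted p = 0.0252). Tmem176a, a membrane channel gene, was at 60.0 and 43.3 CPM against 486 and 344 CPM (3.01 ± 0.33, adjusted p = 0.0252). The collagens of the gate, which chose the cells and are given as a description only, had medians of 252 and 342 UMIs per 10000 UMIs of a fibroblast in the Normal libraries and 106 and 133 in the IMQ libraries. The 12 called fibroblast genes named by the rule all lost their call when Normal_2 was left out, and 11 of them did without either SHP099 library or in a fit of the IMQ and Normal libraries alone.

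Interferon-stimulated and cell cycle genes of fibroblasts leaned lower without a call in the test within that class. All 28 interferon-stimulated genes were fitted below 0 (median -1.25), 19 of them with an unadjusted p below 0.05 against 8.45% of all genes, and 0 were called. In 19 of the 28 both IMQ libraries lay below both Normal libraries, against 21.3% of all tested genes. Normal_1 stood apart in the most abundant members, whose groups overlapped. Ifi27l2a was at 4820 CPM in Normal_1, 384 CPM in Normal_2, 300.4 CPM in IMQ_1 and 540 CPM in IMQ_2, and Ifitm3 at 5167, 931, 2985 and 2932 CPM. Isg15 and Ifit3, chosen after their values were seen, were likewise highest in Normal_1, at 445 and 130 CPM, against at most 70.1 and 21.6 CPM in the other libraries. The 36 cell cycle genes were all fitted below 0 (median -1.80), 20 with both IMQ libraries below both Normal ones, against 21.3% of all genes. In the joint fit of all classes described below, 4 of the 36 had a lower IMQ effect in fibroblasts than in the other classes, against 0.211% of all genes. Normal_2 stood apart in Mki67 and Top2a. Mki67 and Top2a, also chosen afterwards, were at 58.1 and 97.1 CPM in Normal_2, at 11.9 and 21.5 CPM in Normal_1 and at 4.28 to 8.64 CPM in the IMQ libraries. Sterol synthesis genes were all 24 fitted above 0 with 0 called (median 0.58). In 19 of them both IMQ libraries lay above both Normal ones, against 21.8% of all genes. The most abundant of the list, Hmgcs1, overlapped between the groups at 41.4 and 83.3 CPM against 73.7 and 77.7 CPM.

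Mural cells showed acute-phase and matrix genes higher. The complement and acute-phase list had 3 of 17 higher and 0 lower against 0.121% of all tested genes called higher (median 1.26). Saa3 had no UMI in either Normal library and stood at 805 and 484 CPM in the IMQ libraries, at least 626-fold higher (adjusted p = 0.0226), at 4.22% of the fibroblast level. Serpina3n, a serine protease inhibitor, rose from 38.5 and 17.3 CPM to 192 and 168 CPM (log2 fold change 2.86, adjusted p = 0.0409), and Cp, which encodes ceruloplasmin, from 10.5 and 14.6 CPM to 86.8 and 78.5 CPM (2.62, adjusted p = 0.0349). Lcn2 went from 0 and 2.76 CPM to 131 and 126 CPM (5.87, adjusted p = 0.0375). In the matrix list 2 of 37 rose, and 26 had both IMQ libraries above both Normal libraries against 25.1% of all genes. Dcn, a small proteoglycan of fibroblasts, went from 50.7 and 98.1 CPM to 598 and 858 CPM (3.23, adjusted p = 0.0375), and Col12a1 from 56.0 and 47.3 CPM to 199 and 213 CPM (2.02, adjusted p = 0.0375). The summed fibroblast markers of the mural class moved with them, from 1254 and 1271 CPM to 2233 and 2794 CPM, and the IMQ Dcn level was 5.35% of that in fibroblasts, but that of Col12a1 was 77%. The part of fibroblast RNA in these results was not tested.

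Contractile and pericyte genes, which define mural cells, had 0 of 24 called (median 0.19). Tpm2 and Myl9, the most abundant of the list outside the gate, were at 9137 and 7821 CPM against 10060 and 9881 CPM and at 6467 and 4347 CPM against 6619 and 6171 CPM. Rgs5, a pericyte marker chosen after its values were seen, was at 2231 and 1798 CPM against 1053 and 1042 CPM (log2 fold change -0.94, adjusted p = 0.144). Chemokines had 0 of 19 called and 13 with both IMQ libraries above both Normal ones, against 25.1% of all genes (median 0.98). Cxcl1 was at 367 and 160 CPM against 484 and 516 CPM, and the monocyte attractant Ccl2, chosen afterwards, at 21.0 and 43.8 CPM against 128 and 176 CPM (adjusted p = 0.37 and 0.113). All 28 cell cycle genes tested were fitted below 0 with 0 called (median -1.20), and Mki67 had no UMI in the 96 mural cells of Normal_1. The 6 called mural genes named by the rule all lost their call without Normal_2, and 5 did without SHP099_2 or with a mitochondrial limit of 5%.

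In endothelial cells the genes that rose included matrix proteases and inhibitors, 2 of 17 higher and 0 lower against 0.0784% of all tested genes called higher (median 1.05). Timp1, an inhibitor of matrix metalloproteinases, rose from 12.0 and 10.8 CPM to 111 and 121 CPM (log2 fold change 3.39 ± 0.30 SE, adjusted p = 0.0159). Adamts5, an aggrecan-cleaving protease, rose from 17.9 and 26.4 CPM to 211 and 214 CPM (3.14 ± 0.38, adjusted p = 0.0367). In both, the libraries of a group lay close together and the groups far apart. Saa3 had no UMI in Normal endothelial cells and stood at 164 and 606 CPM in the IMQ libraries, at least 553-fold higher (adjusted p = 0.0367), at 2.58% of the fibroblast level. With a mitochondrial limit of 5%, 3 of the 4 named endothelial calls were lost. S100a8 had 2 UMIs in the Normal libraries and 90.4 and 81.5 CPM in the IMQ libraries, a ratio of 181 with an exact 95% counting interval of 49.9 to 1500 (adjusted p = 0.0367), at 0.431% of the myeloid level. Lcn2, chosen after its values were seen, was at 530 and 141 CPM against 2744 and 2105 CPM and was not called (2.90, adjusted p = 0.113).

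Endothelial identity genes had 0 of 31 called with a median of -0.06. Cldn5, a tight junction gene, was at 2202 and 853 CPM against 1977 and 1791 CPM, and Egfl7 at 1185 and 896 CPM against 1360 and 1195 CPM. The adhesion genes Sele and Selp, which capture leukocytes and were chosen after their values were seen, separated Normal_1 from the rest and not the groups. Sele was at 2.99, 56.5, 75.5 and 70.6 CPM and Selp at 5.98, 194, 234 and 310.0 CPM in Normal_1, Normal_2, IMQ_1 and IMQ_2. Cell cycle genes had 32 of 34 fitted above 0, 26 with both IMQ libraries above both Normal ones against 25% of all genes, and 0 called (median 0.86). All 18 MHC class I genes were fitted below 0 with 0 called (-0.76), with B2m at 3680 and 2306 CPM against 2141 and 2206 CPM. The endothelial class of Normal_2 held other cells' RNA, since its adipocyte markers summed to 11507 CPM against 533 to 1375 CPM in the other libraries and its erythroid markers to 5392 CPM against 0 to 14 CPM.

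Whether an effect differed between classes was tested in a joint fit of all 6, as the IMQ effect in a class minus the mean effect in the other 5. Adamts5 was at 199.5 and 497 CPM against 141 and 161 CPM in mural cells, and its effect there differed from the other classes by -3.00 on the log2 scale (adjusted p = 0.00547). In keratinocytes, where it rose from 2.7 and 3.11 CPM to 33.5 and 37.2 CPM, the same difference was 2.53 (adjusted p = 0.0017). Cxcl12 rose in fibroblasts, whereas in endothelial cells it was at 111 and 1275 CPM against 40.5 and 82.8 CPM, a class difference of -4.88 (adjusted p = 0.00868). The endothelial value of Cxcl12 rested on Normal_2, and its log2 fold change in that class was -3.52 with that library and -0.83 without it.

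The T cell class of IMQ skin held more RNA of type 17 cytokines, in values that missed the threshold over all genes. In this and the other T cell lists, changes within a kind of T cell cannot be told apart from changes in the mixture. Of 16 type 17 genes 15 had both IMQ libraries above both Normal libraries, against 24.3% of all tested genes, and 12 had an unadjusted p below 0.05, against 6.63%, but 0 were called (median log2 fold change 1.87). Il17a was at 9.39 and 91.6 CPM in the Normal libraries and at 2239 and 1009 CPM in the IMQ libraries (4.99 ± 1.29 SE, adjusted p = 0.184). Il22 was at 1.71 and 49.1 CPM against 2068 and 1729 CPM (6.18 ± 1.10, adjusted p = 0.0905). Il17f, named after its values were seen, was at 0 and 23.9 CPM against 1639 and 1280 CPM (6.86 ± 1.22, adjusted p = 0.0905). For each of these cytokines both IMQ libraries lay above both Normal libraries, and the Normal libraries differed from each other by a larger ratio than the IMQ ones. With the replicate number as a block, whose meaning the labels do not give, edgeR called 156 genes in T cells in place of 8, among them Il17a and Il22 (adjusted p = 0.0468 and 0.0172). Markers of IL-17-producing gamma delta T cells, also chosen afterwards, were higher in value without a call, with Cd163l1 at 23.9 and 107 CPM against 502 and 269.5 CPM and Blk at 14.5 and 95.6 CPM against 254 and 266 CPM (adjusted p = 0.254 and 0.271). The receptor gene Il23r was at 5.12 and 18.6 CPM against 41.4 and 54.6 CPM (adjusted p = 0.27).

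Cytotoxic and regulatory genes of T cells were mixed. In the cytotoxic list 7 of 17 had both IMQ libraries above the Normal ones and 5 had both below, with 0 called (median 0.73). Of all genes 24.3% lay above and 26.2% below in that way. Xcl1, a lymphocyte chemokine, was at 2733 and 1329 CPM against 546 and 459.6 CPM (log2 fold change -2.01, adjusted p = 0.102), and Nkg7, a granule protein, at 2173 and 1030 CPM against 482 and 651 CPM (-1.50, adjusted p = 0.215). The granzymes, chosen after their values were seen, lay the other way, with Gzmb at 82.8 and 75.0 CPM against 328 and 429.9 CPM and Gzma at 5.97 and 11.3 CPM against 176 and 607 CPM (adjusted p = 0.0905 and 0.196). The regulatory list had 0 of 17 called (-0.04), and its transcription factor Foxp3, chosen afterwards, was at 11.1 and 51.8 CPM against 8.36 and 6.61 CPM (adjusted p = 0.238).

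All 56 cytosolic ribosomal protein genes were fitted above 0 in T cells, with 0 called (median 0.69). In 50 of them both IMQ libraries lay above both Normal ones, against 24.3% of all genes. Rps24 was at 4351 and 3791 CPM against 6232 and 7005 CPM (log2 fold change 0.70, adjusted p = 0.293). Heat shock genes had 0 of 12 called (median 0.85), but 4 of them had a larger IMQ effect in T cells than in the other classes, against 0.178% of all genes. Dnajb1, a co-chaperone, was at 218 and 202 CPM against 1324 and 518 CPM, with a class difference of 2.09 (adjusted p = 0.0261), and Hsp90aa1 at 773 and 996 CPM against 2672 and 1822 CPM, with a difference of 1.33 (adjusted p = 0.0248).

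Each gene called in T cells that belonged to a list was more abundant in another class. S100a9 had no UMI in Normal T cells and 185 and 179 CPM in the IMQ libraries, at least 164-fold higher (adjusted p = 0.0296), at 0.995% of the myeloid level. Saa3 was at 46.6 and 72.8 CPM in the IMQ libraries, at least 46.1-fold higher than in the Normal libraries, which held none (adjusted p = 0.0296), at 0.375% of the fibroblast level. Krt77 fell from 89.6 and 63.0 CPM to 0 in both IMQ libraries, at least 77.6-fold lower (adjusted p = 0.0296), and its Normal level was 1.76% of that in keratinocytes. Apoe fell from 557 and 271 CPM to 35.4 and 39.7 CPM (log2 fold change -3.47, adjusted p = 0.0365), with a Normal level at 6.88% of that in keratinocytes. The part of RNA from other cells in these calls was not tested. The 5 named calls of T cells were all lost without Normal_1, IMQ_1 or IMQ_2 and with a gate score of 0.4. Myeloid markers in the T class summed to 3527 and 1371 CPM in the Normal libraries and to 809 and 892 CPM in the IMQ libraries.

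Myeloid cells had no called gene, but large differences in value. Of 20 neutrophil genes 19 had both IMQ libraries above both Normal libraries, against 24.6% of all tested genes, and 17 had an unadjusted p below 0.05, against 5.02% (median log2 fold change 6.84). S100a8 was at 0 and 0.714 CPM in the Normal libraries and at 10740 and 30380 CPM in the IMQ libraries (15.21 ± 2.09 SE, adjusted p = 0.218). S100a9 had 2 UMIs in the Normal libraries and 9723 and 25980 CPM in the IMQ libraries, a ratio of 92400 with an exact 95% counting interval of 25600 to 763000. Retnlg and Ngp, neutrophil granule genes chosen after their values were seen, had no UMI in the Normal libraries and were at least 11600-fold and 5020-fold higher in the IMQ libraries (adjusted p = 0.351 and 0.418). The Normal and IMQ libraries were far apart for each of these genes, while IMQ_2 held more calprotectin RNA than IMQ_1. With the replicate number as a block, edgeR called 33 genes in myeloid cells in place of 0, among them S100a8 and S100a9 (both adjusted p = 0.0285).

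Monocyte and inflammatory macrophage genes lay the same way. All 22 tested were fitted above 0, 21 with both IMQ libraries above both Normal ones against 24.6% of all genes, and 0 were called (median 2.11). Chil3, a chitinase-like protein of monocytes and macrophages, was at 1.89 and 8.92 CPM against 3477 and 3813 CPM (log2 fold change 9.28 ± 1.65 SE, adjusted p = 0.306), and Saa3 at 0 and 1.43 CPM against 2760 and 1414 CPM (11.02, adjusted p = 0.218). Ly6c2 and Plac8, monocyte markers chosen after their values were seen, were at 30.7 and 57.6 CPM against 467 and 787 CPM and at 104 and 97.2 CPM against 1110 and 1755 CPM (adjusted p = 0.49 and 0.452). The chemokine gene Cxcl2 was at 774 and 881 CPM against 6302 and 4658 CPM (2.73, adjusted p = 0.233), and Cd14, a co-receptor for lipopolysaccharide, at 57.2 and 156 CPM against 757 and 734 CPM (2.803, adjusted p = 0.475).

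Genes of resident and antigen-presenting cells were lower in value in the same class. In the dendritic and Langerhans cell list 18 of 22 were fitted below 0, 13 with both IMQ libraries below both Normal ones against 24.4% of all genes (median -1.05). Cd207, the langerin of Langerhans cells, was at 2544 and 213 CPM against 366 and 243 CPM, so its difference rested on Normal_1. Mgl2 and Cd209a, lectins of dermal dendritic cells chosen after their values were seen, were at 425 and 849 CPM against 2.91 and 8.62 CPM (log2 fold change -6.79 ± 0.73 SE, adjusted p = 0.198) and at 138 and 466 CPM against 4.11 and 2.57 CPM (-6.49, adjusted p = 0.218). For MHC class II, 11 of 13 were fitted below 0 (median -1.17). H2-Ab1 was at 14060 and 9290 CPM against 4328 and 3219 CPM and H2-Eb1 at 10700 and 6932 CPM against 3359 and 2608 CPM, without overlap. Resident macrophage genes had 17 of 21 fitted below 0 (-1.09), with C1qa overlapping at 397 and 754 CPM against 464 and 376 CPM. The mixture of cells within the myeloid class moved with all of these lists, since summed neutrophil markers were 1093 and 275 CPM in the Normal libraries and 25400 and 64302 CPM in the IMQ libraries, and changes within a cell type cannot be told apart from changes in the mixture. Keratinocyte markers in that class summed to 6208 CPM in Normal_1 and to 229 to 423 CPM in the other libraries.

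**Figure D4:**
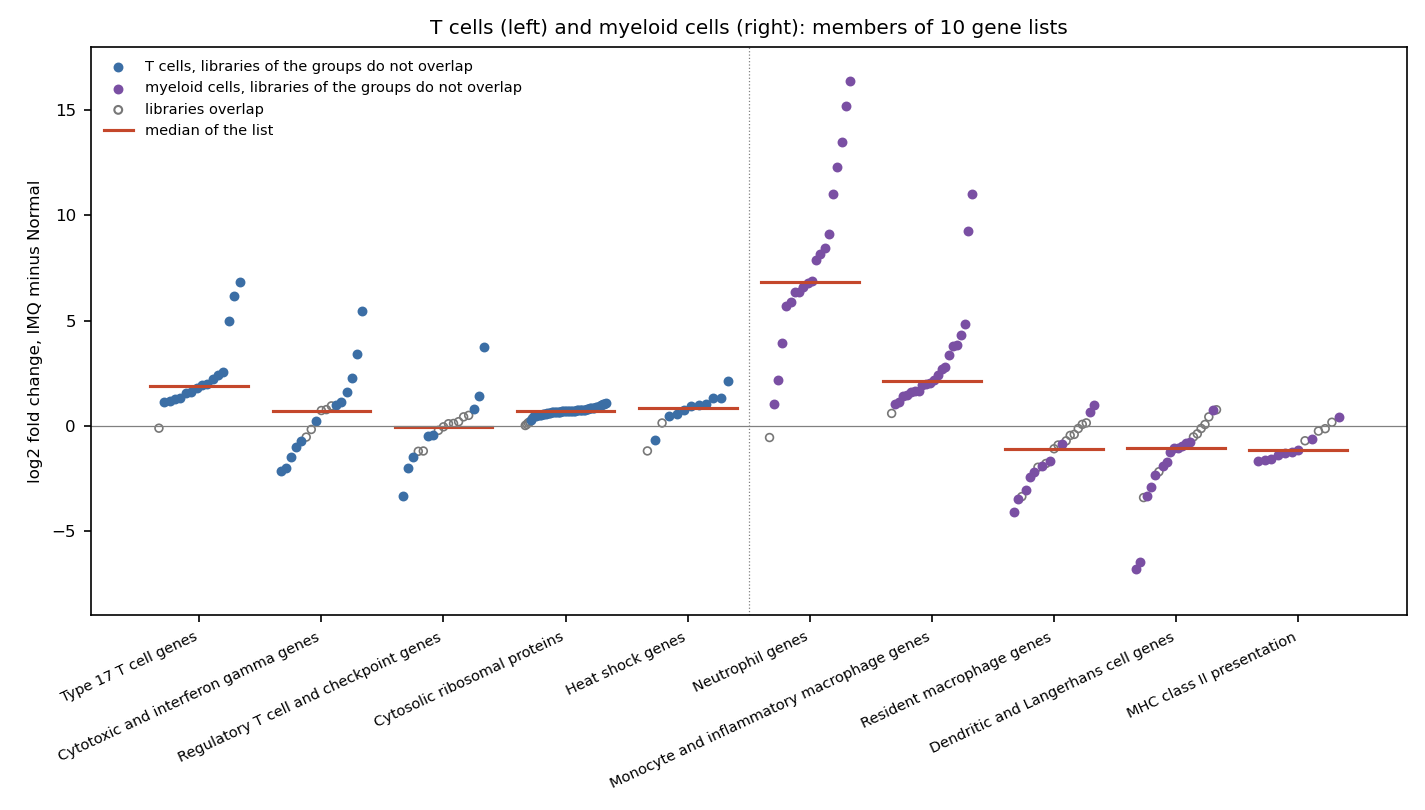
Log2 fold change, IMQ against Normal, of each tested member of 5 lists in T cells and 5 lists in myeloid cells, filled where the Normal and IMQ libraries did not overlap. In T cells 15 of 16 type 17 genes did not overlap and lay above, and in myeloid cells 19 of 20 neutrophil genes did, with no gene past the threshold of the adjusted test in either list. Of all tested genes 24.3% in T cells and 24.6% in myeloid cells lay above in that way.

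The joint fit of 36 sums (6 libraries by 6 classes, 15148 genes, 15 residual degrees of freedom) gave the number of genes whose IMQ effect in a class differed from the mean of the other 5. In keratinocytes 337 effects were higher (2.22%) and 561 lower (3.7%), 5.93% in all, in fibroblasts 14 and 32 (0.304%), in mural cells 15 and 11 (0.172%), in endothelial cells 7 and 11 (0.119%), in T cells 27 and 75 (0.673%) and in myeloid cells 89 and 41 (0.858%). With another scaling of library size (RLE in place of TMM) the keratinocyte split was 470 and 470 and the mural split 7 and 10. Among the keratinocyte lists, the respiratory chain had 14 of 72 effects above those of the other classes, glycolysis 5, wound and stress genes 5 of 29 tested, and MHC class I 5 of 18 below. Krt16 rose in keratinocytes by more than in the other classes, with a difference of 2.30 (adjusted p = 0.0248), Fabp5 by 3.68 (adjusted p = 0.00227) and Ndufa4 by 1.58 (adjusted p = 0.00112), and H2-Q6 was lower by a difference of -2.72 (adjusted p = 0.000145). The IL-17 response list had 1 effect in keratinocytes called above those of the other classes, with a median class difference of 1.45. On simulated counts the joint fit recovered 15.5% of the changes confined to keratinocytes, and 10.7% to 21.4% over the 6 classes. A low count of calls here is therefore not a finding that the classes shared an effect. In myeloid cells 3 of the neutrophil genes had a larger effect than elsewhere, against 0.588% of all genes, among them G0s2, an inhibitor of lipolysis, at 0.946 and 2.74 CPM against 431 and 776 CPM (difference 6.94, adjusted p = 0.000282).

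**Figure D5:**
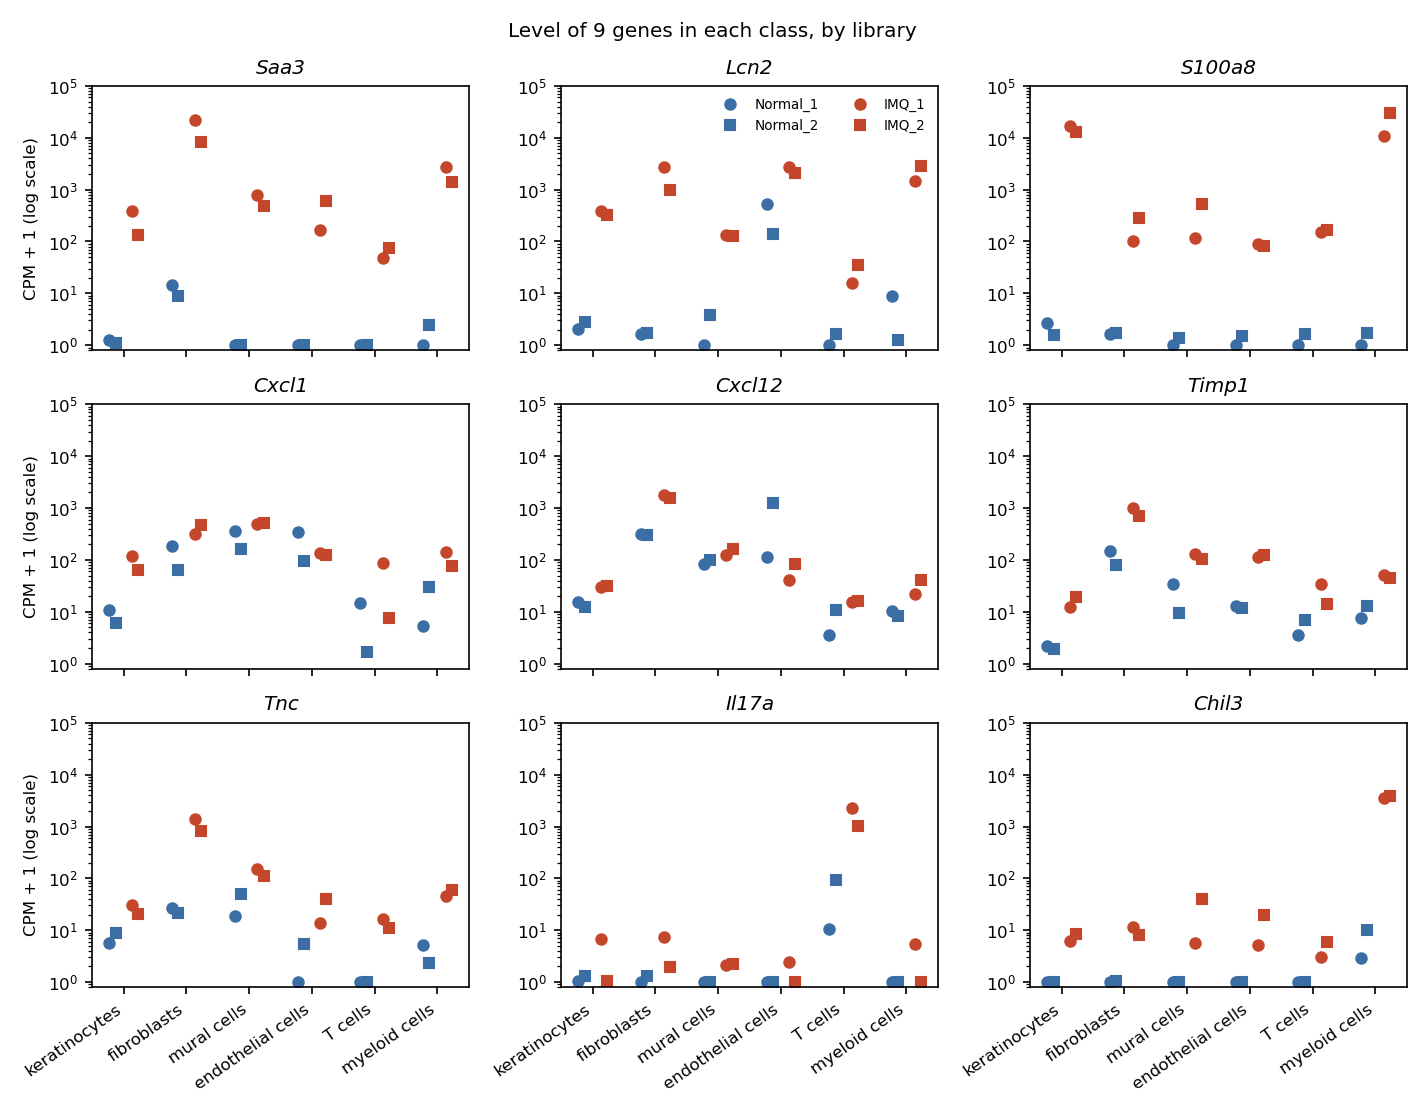
Level of 9 genes in CPM plus 1 on a log scale, in the 6 cell classes, with a point for each Normal and IMQ library. Saa3 was highest in IMQ fibroblasts, at 21610 and 8313 CPM, and Il17a in IMQ T cells, at 2239 and 1009 CPM.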

How the data were processed

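Dorsal skin was dissociated and captured with 10x Genomics 3′ chemistry. The authors made the deposited files, raw UMI counts per gene and barcode for 31053 genes, with CellRanger 3.1.0 and build GRCm38 (mm10); the counts carry no normalization. Barcodes were kept below 100000 UMIs, 6500 genes and 10% mitochondrial UMIs. No doublet caller was run, and barcodes that passed the gates of several classes about equally (1.29% to 2.41% of kept barcodes per library) were left out.

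A gate score was the log of the gate genes' UMIs per 10000, scaled to a high percentile over the libraries, and a cell needed a score of 0.5 and a margin of 0.1 over the next class. UMIs were summed per library and class and fitted in edgeR 4.0.16 (R 4.3.3, limma 3.58.1) with TMM scaling, filterByExpr and glmQLFTest, all 6 libraries in 1 fit, and p-values were adjusted by the Benjamini-Hochberg method over all genes tested. With 2 against 2 libraries of unknown independence, p-values measure the spread between these libraries. Class differences came from 1 fit of all class sums with library, class and class by group. CPM of a gene is its UMIs per 1000000 UMIs of the class sum multiplied by the TMM factor, whereas marker sums and percentages between classes use class sums without the factor. A group at 0 was given a floor of 3 UMIs, and a ratio against 1 to 3 UMIs an exact 95% interval, both for counting error only. DESeq2 1.42.0, another scaling, other filters and gates, and the omission of each library were the alternatives.

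The members, the classes and the 32 lists (800 genes, without 4 symbols on 2 rows) were chosen with earlier results of these data known. A listed gene was named where the adjusted p was below 0.05, the CPM of the groups did not overlap and the mean was at least 20 CPM, up to 3 in each direction by size, and where a list had none, up to 2 members with the highest CPM; gate genes were not named as results. On simulated counts with known changes, the share of false calls was 11.5% to 18.5% in the 5 classes with calls. Motifs were searched in RefSeq promoters of GRCm38.p6. Python 3.11.15 with numpy 2.4.6, scipy 1.17.1, pandas 2.3.3 and matplotlib 3.10.9 was used.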

Additional observations from a re-analysis of the deposited data

Results flagged for a closer look

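Genes were listed here where the test of the difference between classes passed, and the ungated barcodes were added because no comparison used them. The IMQ effect differed from the mean of the other 5 classes for 898 genes in keratinocytes, 46 in fibroblasts, 26 in mural cells, 18 in endothelial cells, 102 in T cells and 130 in myeloid cells.

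Among listed genes at 20 CPM or more whose groups did not overlap, the largest such differences, on the log2 scale, were those of Il1r2 (-5.34) and Gjb2, a connexin (4.43), in keratinocytes, Tmem176a (2.32) and its neighbour Tmem176b (2.31) in fibroblasts, Adamts5 (-3.00) in mural cells, Cxcl12 (-4.88) in endothelial cells, Dnajb1 (2.09) and P4ha2, a collagen prolyl hydroxylase (-2.22), in T cells, and Asprv1 (6.99) and G0s2 (6.94) in myeloid cells. Asprv1, a protease known from the granular layer of the epidermis, was at 7.09 and 1.19 CPM in Normal myeloid cells and at 258 and 583 CPM in IMQ myeloid cells.

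Barcodes that passed no gate held RNA of the neutrophil list in the IMQ libraries. That list includes S100a8 and S100a9, which IMQ keratinocytes held as well. The summed neutrophil list was 626 and 248 CPM in Normal_1 and Normal_2, 14162 CPM in IMQ_1 and 25968 CPM in IMQ_2. This was not tested.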

How the results depend on the processing

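Counts of called genes outside keratinocytes depended strongly on the processing, and their causes were not tested. The keratinocyte count (2232) lay between 2035 and 3291 under all settings run that kept every IMQ and Normal library, but between 857 and 2365 when a single library of the 6 was left out, lowest without IMQ_1 (857), IMQ_2 (1086) and Normal_1 (1499). DESeq2 called 724 genes in fibroblasts (229 higher, 495 lower), 238 in mural cells, 78 in endothelial cells, 133 in T cells and 242 in myeloid cells (161 higher, 81 lower). Without the filter on low counts these were 1461, 1060, 680, 649 and 301, and with only the IMQ and Normal libraries 2, 44, 3, 66 and 41. Gate scores of 0.6 gave 21 in endothelial and 30 in T cells, a score of 0.4 gave 0 in T cells, a margin of 0.25 gave 99 in mural, 26 in endothelial and 25 in T cells, and a mitochondrial limit of 5% gave 2 in mural and 1 in endothelial cells.

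With a library left out, counts ran from 2 to 360 in fibroblasts, 1 to 120 in mural cells, 3 to 710 in endothelial cells, 0 to 113 in T cells and 0 to 49 in myeloid cells. The count was highest without Normal_1 in the first 3 of these (360, 120 and 710), and without SHP099_2 in T cells (113) and SHP099_1 in myeloid cells (49). It was 2 in fibroblasts without Normal_2, SHP099_1 or SHP099_2 and 19 without IMQ_1. In mural cells it was 1 without Normal_2, 7 without either IMQ library, 10 without SHP099_1 and 4 without SHP099_2. In endothelial cells it was 64 without Normal_2, 4 without IMQ_1, 5 without IMQ_2 and 3 without either SHP099 library. In T cells it was 0 without Normal_1 or IMQ_1, 1 without IMQ_2, 44 without Normal_2 and 88 without SHP099_1, and in myeloid cells 40 without SHP099_2. Named calls in keratinocytes kept their direction under every alternative run. Of 74, 27 lost their call without Normal_1, 28 without IMQ_1 and 23 without IMQ_2.

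Replicate numbers do not say what they mark, and whether they pair the libraries is not known. The fit with a replicate block called 3078 genes in keratinocytes, 331 in fibroblasts, 31 in mural cells, 31 in endothelial cells, 156 in T cells and 33 in myeloid cells. Deviations of same-numbered Normal and IMQ libraries correlated at 0.102, 0.023, 0.0836, -0.0021, 0.142 and 0.236 in the same order. For Normal and SHP099 these were 0.208, 0.0956, -0.1, 0.0545, 0.327 and 0.394, and for IMQ and SHP099 0.0615, 0.173, -0.089, 0.058, 0.12 and 0.248, so that all were above 0.1 in T and myeloid cells.

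Class differences numbered 153 in fibroblasts, 86 in mural, 152 in endothelial, 181 in T and 243 in myeloid cells without the filter, 17 in mural and 11 in endothelial cells with RLE scaling, and 25, 8, 201 and 71 in fibroblasts, endothelial, T and myeloid cells with a gate score of 0.6. With a library left out they ran from 15 to 1128 in keratinocytes, 0 to 207 in fibroblasts, 0 to 133 in mural, 0 to 158 in endothelial, 0 to 386 in T and 7 to 217 in myeloid cells, with the lowest values without an IMQ library in each class.

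Differences in shares ran, with a library left out, from -57.4 to -5.63 points for keratinocytes, 5.45 to 33.9 for fibroblasts, 6.13 to 8.41 for mural, -3.26 to 1.59 for endothelial, -2.56 to 3.66 for T and -3.56 to 4.43 for myeloid cells. Signs reversed for endothelial cells without Normal_2 (1.59), for T cells without Normal_2 (-0.161) or IMQ_1 (-2.56), and for myeloid cells without Normal_1 (-3.56) or IMQ_1 (-0.198) and with a gate score of 0.6 (-0.239). Of the values for single genes and lists, 7261 did not change their call, 837 moved, 242 lost their call, 160 gained one and 0 reversed. The smallest class sums among the IMQ and Normal libraries were 350679 UMIs of endothelial cells and 566889 UMIs of mural cells, both in Normal_1.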

Other observations

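Contractile genes also rose in keratinocytes of IMQ skin. In the contractile and pericyte list 9 of 21 tested members rose and 0 fell (median log2 fold change 1.53), against 6.64% of all tested genes called higher. Tpm2, a tropomyosin, rose from 89.6 and 74.6 CPM to 423 and 392 CPM and Cald1, an actin-binding protein, from 13.3 and 26.1 CPM to 64.1 and 49.7 CPM (adjusted p = 0.00414 and 0.0218, edgeR's quasi-likelihood test with Benjamini-Hochberg adjustment). The IMQ level of Cald1 was 1.97% of that in mural cells, whose part was not tested. The unfolded protein response list had 2 of 21 higher and 0 lower and the heat shock list 1 of 12 and 0. Xbp1, a transcription factor of the unfolded protein response, rose from 37.3 and 49.4 CPM to 93.8 and 95.1 CPM, and the mitochondrial chaperone Hspd1 from 119 and 172 CPM to 355 and 327 CPM (adjusted p = 0.0192 and 0.0492). Areg, the epidermal growth factor receptor ligand amphiregulin, rose from 44.8 and 31.2 CPM to 678 and 392 CPM (adjusted p = 0.00211), whereas in T cells it was at 2208 and 583 CPM against 500 and 722 CPM and was not called (adjusted p = 0.341).

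Interferon-stimulated and immediate early genes lay on different sides in different classes, without a call. In myeloid cells 20 of 27 interferon-stimulated genes were fitted above 0 (median 0.45), with Ifitm3 at 500 and 480 CPM against 2408 and 3364 CPM, while in endothelial cells 18 of 26 were fitted below 0 (-0.76), with Ly6e at 1661 and 1660 CPM against 951 and 1096 CPM. Of 20 immediate early genes 17 were fitted above 0 in T cells (0.84) and 18 below 0 in mural cells (-0.59). Fos was at 2166 and 2641 CPM against 7369 and 3641 CPM in T cells and at 6399 and 2713 CPM against 2750 and 3068 CPM in mural cells, where Normal_1 stood apart. In the test of class differences 0 of the 28 interferon-stimulated genes passed in myeloid or endothelial cells and 0 of the 20 immediate early genes in T or mural cells (adjusted p = 0.421 and 0.456 for Fos).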
